A study of Mus musculus with 16 samples.

Results

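The signaling lymphocytic activation molecule (SLAM) family was followed in bulk RNA-seq of 16 MC38 tumors through 9 genes, namely the receptors Slamf1, Slamf6, Ly9, Cd48, Cd84, Slamf7, Slamf8 and Slamf9 and the adaptor gene Sh2d1a. The genes were listed by name and matched by symbol, and all 9 were found among the 53465 genes of the count table. They were grouped by the cells in which they are best known, with 4 lymphocyte members (Slamf1, Slamf6, Ly9 and Sh2d1a), 3 members shared by lymphocytes and myeloid cells (Cd48, Cd84 and Slamf7) and 2 myeloid members (Slamf8 and Slamf9). The list was drawn up with the differences between the groups of these same tumors already known. The members' values and calls in those contrasts are therefore given as a description and are no independent test.

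MC38 is a mouse colorectal carcinoma line. Female C57BL/6 mice aged 6 to 8 weeks were given MC38 cells under the skin of the flank, entered the study at a tumor size of 150 to 250 mm3 on day 16, received 200 µg of control IgG or of an antibody against PD-1 (aPD-1) on days 16 and 20, and gave their tumors on day 21. The groups are 8 IgG control tumors (replicates 1 to 8), 6 aPD-1 non-responder tumors (replicates 9 to 14) and 2 aPD-1 responder tumors (replicates 15 and 16), each from another mouse. The study assigned response by staining for CD8 T cells, so a higher T cell content belongs to the definition of the responders. RNA came from 2 sections of 100 µm of each frozen block, which hold cancer cells, stroma and infiltrating cells together, and fewer cells of a type cannot be told apart from less RNA per cell. The epithelial genes Krt8, Krt18 and Epcam, named after their values were seen, had medians of 0.338, 0.296 and 0.502 CPM (the counts-per-million unit) over the 16 tumors, so these markers of a carcinoma were close to absent in most of them, and Cdh1 had a median of 4.81 CPM.

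SLAM receptors are immunoglobulin superfamily proteins on the surface of blood cells. Most of them bind their own kind on a neighbouring cell, whereas Cd48 is a lipid-anchored ligand for the receptor encoded by Cd244a and for Cd2. The cytoplasmic tails of Slamf1, Slamf6, Ly9, Cd84 and Slamf7 carry tyrosine-based switch motifs, which bind small SH2 adaptors: SAP, encoded by Sh2d1a, in T and NK cells, and EAT-2, encoded in mice by Sh2d1b1 and Sh2d1b2, in innate cells. SAP recruits the kinase Fyn and is needed for lasting contacts between T and B cells and for NKT cell development. Slamf8 and Slamf9 have short tails without such motifs and are found mainly on macrophages and dendritic cells.

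The 8 receptor genes occupy positions 171588624 to 172590568 of chromosome 1 (build GRCm38), while Sh2d1a occupies 42502453 to 42529330 of chromosome X. Promoter sequences from RefSeq (GRCm38.p6) were matched for 7 of the 9 members, all but Ly9 and Sh2d1a. Shown here are the 250 bases before the start of the 2 lymphocyte receptors of largest difference and of both myeloid receptors, 5′ to 3′ on the strand of the gene, since these pairs behaved differently in the responders. Capitals mark a match to a motif searched on both strands.
Slamf1 (chr1:171766882-171767131, plus strand): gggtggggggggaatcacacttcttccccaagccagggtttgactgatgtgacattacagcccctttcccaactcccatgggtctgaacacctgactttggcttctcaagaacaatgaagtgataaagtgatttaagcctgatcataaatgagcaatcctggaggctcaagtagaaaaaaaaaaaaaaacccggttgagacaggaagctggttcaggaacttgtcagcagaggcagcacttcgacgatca
Slamf6 (chr1:171917212-171917461, plus strand): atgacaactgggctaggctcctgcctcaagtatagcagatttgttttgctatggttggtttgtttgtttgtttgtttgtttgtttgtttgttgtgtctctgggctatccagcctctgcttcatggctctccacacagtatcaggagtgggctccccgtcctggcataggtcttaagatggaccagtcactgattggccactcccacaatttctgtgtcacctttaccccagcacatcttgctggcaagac
Slamf8 (chr1:172590569-172590818, minus strand): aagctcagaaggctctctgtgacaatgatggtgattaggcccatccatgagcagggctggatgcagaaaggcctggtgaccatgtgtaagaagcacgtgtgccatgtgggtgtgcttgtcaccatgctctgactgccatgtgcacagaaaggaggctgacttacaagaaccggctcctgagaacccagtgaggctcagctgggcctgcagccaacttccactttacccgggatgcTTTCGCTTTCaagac
Slamf9 (chr1:172475110-172475359, plus strand): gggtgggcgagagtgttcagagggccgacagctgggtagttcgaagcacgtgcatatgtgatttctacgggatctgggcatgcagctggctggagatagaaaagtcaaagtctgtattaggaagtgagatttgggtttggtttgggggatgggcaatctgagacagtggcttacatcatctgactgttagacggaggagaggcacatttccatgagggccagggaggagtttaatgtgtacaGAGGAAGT
The motifs searched were an interferon-stimulated response element (ISRE) core, which is GAAA, 2 bases of any kind and GAAA, a PU.1 motif, GAGGAAGT, a RUNX motif, TGTGGT, and a STAT element, TTCNNNGAA. Slamf8 holds the ISRE core on the opposite strand, with its first base 15 bases before the start, and 2.98% of 32536 promoters hold this core. In Slamf9 the PU.1 motif, present in 2.45% of promoters, occupies the last 8 bases before the start. Cd48 and Cd84 each hold the RUNX motif, 76 and 45 bases before the start, as do 13.96% of promoters. No match to any of these letters lies in the windows of Slamf1, Slamf6 and Slamf7. The STAT element, present in 7.04% of promoters, had no match in any of the 7 members. These are matches of letters only, and no binding was measured.

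Total counts ranged from 26603449 to 39948866 per tumor, with a median of 34105782. Levels are CPM on library sizes scaled by edgeR's TMM method, and all 9 members were among the 18251 genes that passed the filter on low counts. Mitochondrial genes took 7.60% of counts in IgG control replicate 1, 6.00% in non-responder replicate 9 and 5.73% in non-responder replicate 14, against 2.52% to 3.25% in the other tumors. No 2 libraries were as alike as copies of 1 library would be, with a lowest chi-square per degree of freedom of 15.2 over 120 pairs. Differences are log2 fold changes with their standard error (SE) from an edgeR quasi-likelihood fit of all 16 tumors, and a gene is called at a Benjamini-Hochberg adjusted p below 0.05 over all genes tested together with an absolute log2 fold change over 1.

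The responders had higher levels of 7 members, by amounts that fell from the lymphocyte receptors over the shared receptors to the myeloid ones. Of the 9 members, 6 were called higher in responders than in non-responders and 0 were called lower. Of all genes tested 13.2% were called in that comparison, with 12.5% called higher and 0.663% called lower. Against IgG controls 6 of 9 members were called, all higher, with 14.3% of all genes called higher. Since the members were listed with these contrasts known, nothing is read from these counts. Both responders lay above all 6 non-responders in 7 members and below them in 1, Slamf9, and 34.7% of all genes tested did not overlap between those groups. In 7 members they lay above all 8 IgG controls, where 29.0% of all genes did not overlap.

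**Figure D1:**
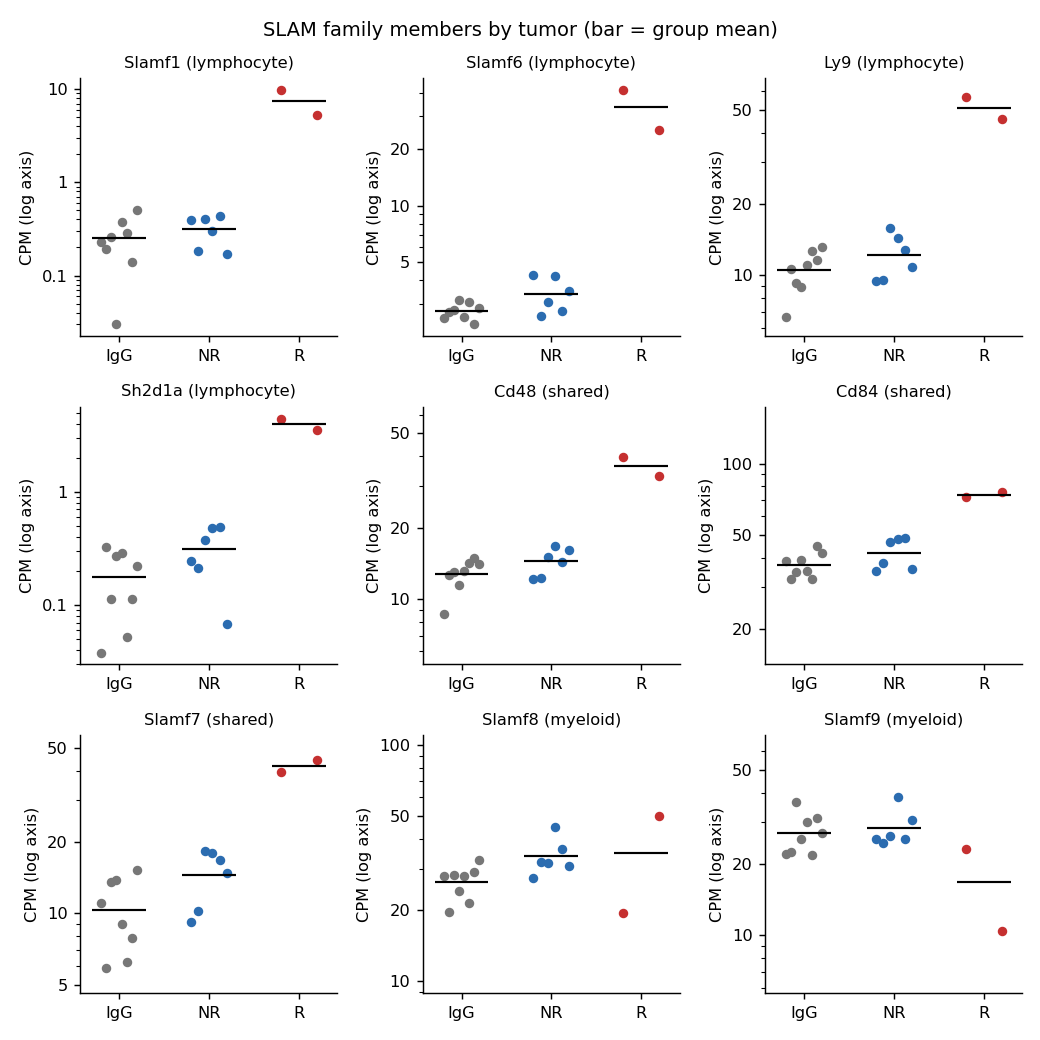
Expression of each of the 9 members in every tumor, as CPM on a log axis, for IgG control (IgG, 8 tumors), aPD-1 non-responder (NR, 6 tumors) and aPD-1 responder (R, 2 tumors), with a bar at each group mean. The 2 responders sit above all other tumors in the lymphocyte and shared members, whereas in Slamf8 they lie at opposite ends and in Slamf9 1 of them, at 10.4 CPM, lies below all others.

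Slamf6, a receptor of T, NK and B cells that is also used as a marker of progenitor-like CD8 T cells, stood at 41.4 CPM in responder replicate 15 and 25.5 CPM in responder replicate 16. In the non-responders it ranged from 2.58 to 4.27 CPM with a median of 3.30, and in the IgG controls from 2.33 to 3.15 CPM with a median of 2.74. The 2 responders were 12.2 and 7.49 times the non-responder mean, and the groups did not overlap. Its log2 fold change was 3.29 (SE 0.20) against non-responders and 3.60 (SE 0.18) against IgG controls.

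Slamf1, the founding receptor of the family on activated T cells, B cells and some macrophages, had the largest difference. It was measured at 9.75 and 5.34 CPM in responder replicates 15 and 16, which are 330 and 190 counts. In non-responders it ranged from 0.169 to 0.437 CPM with a median of 0.350, and in IgG controls from 0.0300 to 0.499 CPM with a median of 0.245. Those 14 tumors held between 1 and 18 counts each, so the level outside the responders is close to the limit of detection. The log2 fold change was 4.56 (SE 0.51) against non-responders and 4.89 (SE 0.46) against IgG controls.

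Ly9, a receptor of T and B cells that is used as a marker of innate-like lymphocytes, was the lymphocyte member with the highest level outside the responders. It stood at 56.7 and 45.6 CPM in responder replicates 15 and 16, at 9.49 to 15.9 CPM (median 11.8) in non-responders and at 6.65 to 13.2 CPM (median 10.8) in IgG controls. The lowest value of all belongs to IgG control replicate 1, the tumor of highest mitochondrial share. Its log2 fold change was 2.07 (SE 0.22) against non-responders and 2.28 (SE 0.20) against IgG controls. Ly9 overlaps Cd244a on the opposite strand of the genome. The libraries kept strand, but the strand setting used in counting is not given in the sources used here, so the division of reads between these genes is uncertain. Cd244a itself encodes another receptor of the SLAM family, which is not among the 9 members. It was named here because of this overlap, after its values were seen. Its log2 fold change was -0.02 (SE 0.21) against non-responders and 0.05 (SE 0.20) against IgG controls, and it was not called. Statements on the lymphocyte members therefore cover the listed genes and not every receptor of the family.

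Sh2d1a, which encodes SAP, was at 4.43 and 3.49 CPM in responder replicates 15 and 16, from 150 and 124 counts. It ranged from 0.0677 to 0.488 CPM (median 0.309) in non-responders and from 0.0380 to 0.328 CPM (median 0.167) in IgG controls, with 1 to 19 counts a tumor. The responders did not overlap with the other groups, and the non-responders overlapped with the IgG controls. The log2 fold change was 3.64 (SE 0.57) against non-responders and 4.43 (SE 0.53) against IgG controls, the largest SE of the members.

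The shared receptors differed less. Cd48, found on most blood cells, was at 39.7 and 32.9 CPM in responder replicates 15 and 16, at 12.1 to 16.7 CPM (median 14.7) in non-responders and at 8.63 to 14.8 CPM (median 13.03) in IgG controls. No responder overlapped with another group, and the log2 fold change was 1.33 (SE 0.17) against non-responders and 1.51 (SE 0.16) against IgG controls. Slamf7, a receptor of NK cells, plasma cells and activated myeloid cells, was at 39.6 and 44.3 CPM in the responders, 9.22 to 18.3 CPM (median 15.8) in non-responders and 5.88 to 15.2 CPM (median 10.01) in IgG controls. Its log2 fold change was 1.53 (SE 0.32) against non-responders and 2.02 (SE 0.30) against IgG controls. Unlike Slamf1, Slamf6, Ly9, Sh2d1a and Cd48, it was higher in responder replicate 16.

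Cd84, a self-binding receptor of B cells, follicular helper T cells, platelets and macrophages, had the highest CPM of the 3 shared members, at 72.0 and 75.9 in the responders. Non-responders ranged from 35.1 to 48.3 CPM (median 42.1) and IgG controls from 32.4 to 44.7 CPM (median 37.0). The responders again stood above every other tumor, with a log2 fold change of 0.82 (SE 0.15) against non-responders and 0.98 (SE 0.14) against IgG controls. It was not called because its fold change fell short of the threshold. Against IgG controls the call was made in 4 of 16 alternative settings, where the log2 fold change reached at most 1.03.

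The myeloid receptors did not share this pattern. The 2 responders lay on opposite sides of the other tumors for Slamf8 and were both below the non-responders for Slamf9, by different amounts. Slamf8, a macrophage receptor known to restrain the phagocyte NADPH oxidase, was at 19.5 CPM in responder replicate 15, below all 14 other tumors, and at 50.2 CPM in responder replicate 16, above all of them. Non-responders ranged from 27.3 to 45.1 CPM (median 31.8) and IgG controls from 19.6 to 32.7 CPM (median 27.9). Replicate 15 was only just below the lowest IgG control. Against non-responders the log2 fold change was 0.04 (SE 0.27), an average of opposite values. It was -0.84 without responder replicate 16 and 0.50 without responder replicate 15. Against IgG controls it was 0.41 (SE 0.25), with -0.48 without responder replicate 16 and 0.86 without responder replicate 15. With both responders in the fit, Slamf8 was not called against either group.

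Slamf9, a receptor of macrophages and dendritic cells, was at 23.1 CPM in responder replicate 15 and 10.4 CPM in responder replicate 16. Non-responders ranged from 24.5 to 38.2 CPM (median 25.97) and IgG controls from 21.9 to 36.4 CPM (median 26.2). Replicate 16 thus lay below every other tumor, while replicate 15 lay within the range of the IgG controls and just under the non-responders. The adjusted p of Slamf9 was below 0.05 in 5 of 14 alternative settings against non-responders and in 4 of 16 against IgG controls. In the fit of all 16 tumors the log2 fold change was -0.76 (SE 0.27, adjusted p = 0.0567) against non-responders. Against IgG controls it was -0.69 (SE 0.26, adjusted p = 0.0693), and neither was called. Without responder replicate 15 the values were -1.52 and -1.45 and both were called lower, whereas without responder replicate 16 they were -0.35 and -0.28.

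**Figure D2:**
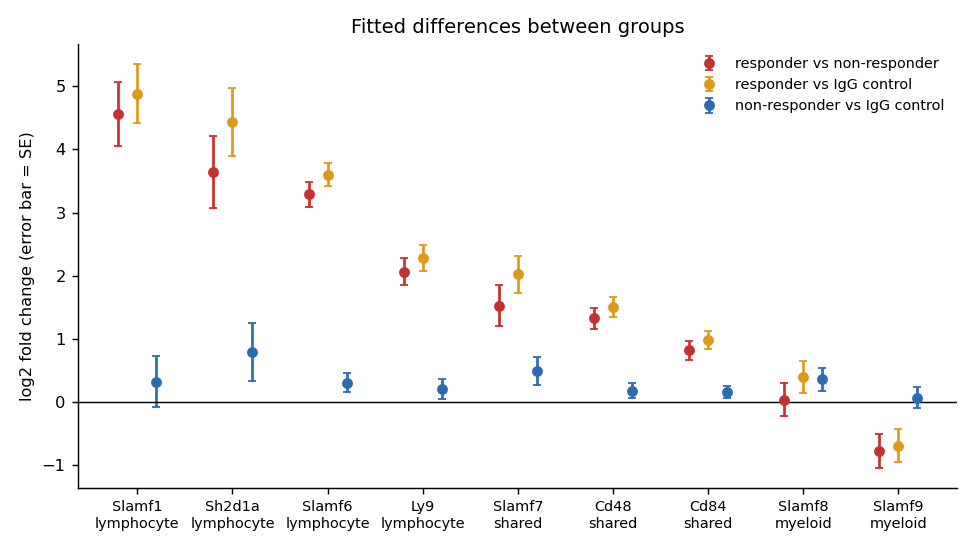
Log2 fold change of each member (vertical axis, error bar SE of the fit) in responders against non-responders, responders against IgG controls and non-responders against IgG controls, ordered by the first. Values run from 4.56 for Slamf1 to -0.76 for Slamf9 against non-responders, and the non-responders differ from IgG controls by 0.07 to 0.80.

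Between the 2 responders, Slamf8 and Slamf9 differed in opposite directions. On the log2 scale, replicate 15 minus replicate 16 was -1.36 for Slamf8 and 1.14 for Slamf9. Of 13943 genes compared, 4.08% and 5.82% differed by as much between the same 2 tumors in either direction. For the other 7 members the difference ran from -0.16 for Slamf7 to 0.86 for Slamf1. The ratio of Slamf8 to Slamf9, in CPM, was 0.845 in responder replicate 15 and 4.81 in responder replicate 16. In the other 14 tumors it lay between 0.770 and 1.43 with a median of 1.03, so replicate 16 alone left that range.

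**Figure D3:**
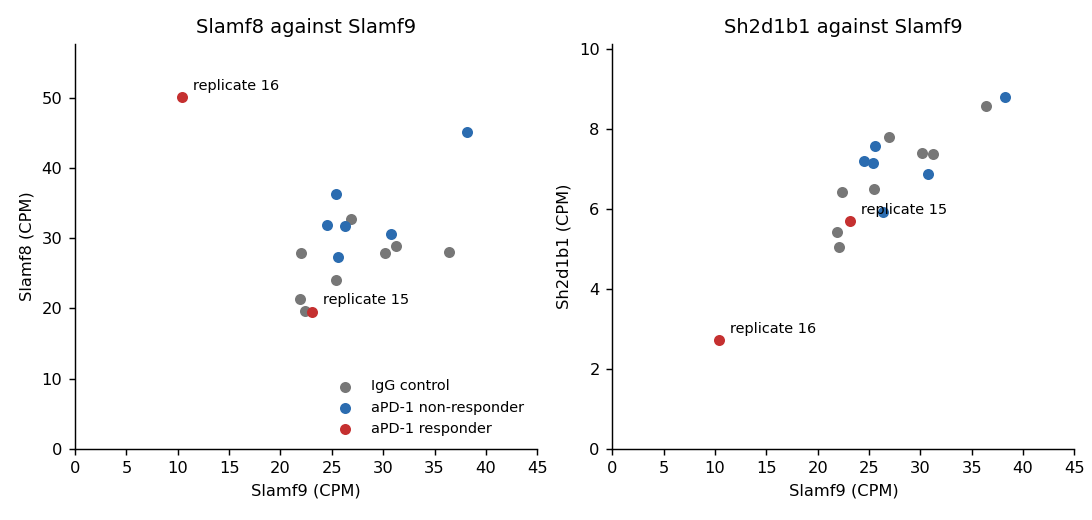
Slamf8 (left) and Sh2d1b1 (right), both in CPM on a linear axis, against Slamf9 in CPM, 1 point per tumor, colored by group, with the responders marked by replicate number. Responder replicate 16 lies apart at high Slamf8 and low Slamf9 on the left, and at the lowest value of both genes on the right.

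The ratios of Slamf6 to another lymphocyte receptor, Ly9, and to the myeloid receptor Slamf9 also shifted. Slamf6 over Ly9 was 0.729 and 0.558 in responder replicates 15 and 16, and 0.193 to 0.450 with a median of 0.262 in the other 14 tumors. Slamf6 over Slamf9 was 1.79 and 2.44 in the responders, and 0.0747 to 0.167 with a median of 0.112 elsewhere. Both responders lay above all other tumors in both ratios. The ratios restate the differences given above for these genes and are no separate result. These ratios compare changes of the same pair between tumors and not the abundance of one gene with that of another.

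Levels of different genes were compared per kilobase of exon (CPM per kb). The length used joins all annotated exons of a gene, which may be longer than the transcripts present in these tumors. In IgG controls Slamf9 led with 20.6 ± 3.99 (SD, n = 8), followed by Cd48 with 10.7 ± 1.66, Slamf8 with 8.54 ± 1.40 and Cd84 with 5.96 ± 0.718. Ly9 followed with 3.18 ± 0.651, Slamf7 with 2.26 ± 0.789 and Slamf6 with 0.253 ± 0.0260. Slamf1 with 0.0408 ± 0.0232 and Sh2d1a with 0.0323 ± 0.0205 came last. Neighbours in this order whose ranges over tumors overlap, and which are therefore not separated, are Cd48 and Slamf8, Slamf8 and Cd84, Ly9 and Slamf7, and Slamf1 and Sh2d1a. Non-responders kept this order except that Sh2d1a and Slamf1, whose ranges overlap, changed places.

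In the responders the order was different. Cd48 led with 30.5 ± 4.01 CPM per kb (SD, n = 2), above Ly9 with 15.5 ± 2.36. Slamf9 with 12.8 ± 6.83, Cd84 with 11.8 ± 0.439, Slamf8 with 11.3 ± 7.03 and Slamf7 with 9.18 ± 0.727 followed. From Ly9 to Slamf7 each gene overlapped with the next in order, and no other neighbours in this order did. Slamf6 had 3.09 ± 1.04, Slamf1 1.23 ± 0.507 and Sh2d1a 0.719 ± 0.122 CPM per kb. The lymphocyte members Slamf6, Slamf1 and Sh2d1a therefore kept the lowest values of the 9 per kilobase of annotated exon, in the group where they differed most. For Slamf6 this rank depends on its annotated exon length of 10.832 kb. Without division by length its responder mean was 33.4 CPM, next to 34.9 CPM for Slamf8 and 16.8 CPM for Slamf9.

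Between aPD-1 non-responders and IgG controls 0 of 9 members were called, as were 0 of 18251 genes (0%). The non-responders were sorted by their outcome after treatment and the IgG controls were not. This contrast therefore does not give the effect of the antibody by itself. At an unadjusted p below 0.05 there were 694 of all genes and 1 member in the edgeR fit, and DESeq2 called 4 genes and 0 members. The log2 fold changes were positive in all 9 members, from 0.07 (SE 0.17) for Slamf9 to 0.80 (SE 0.46) for Sh2d1a, with a median of 0.31. The median over all genes tested was -0.01. It was 0.60 for the 8 T cell markers and 0.10 for the 10 macrophage and monocyte markers, with none called. In the edgeR fit 4 of these T cell markers and 0 of these macrophage and monocyte markers had an unadjusted p below 0.05. Slamf7 had 0.49 (SE 0.23), Slamf8 0.36 (SE 0.18) and Slamf6 0.31 (SE 0.15). The ranges of the groups overlapped in every member, and 0.0384% of all genes did not overlap. This comparison shares the IgG controls with one of those above and the non-responders with the other, so the contrasts are not independent.

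For each member the genes of most similar log2 CPM over the 16 tumors were taken from 12509 genes with a mean of at least 1 CPM. The points share the 2 responders, which carry much of each value, so r over the 14 other tumors is given as well. Slamf1 was most like Spint2 (Pearson's r = 0.981 over 16 tumors and 0.861 over 14), the T cell kinase gene Lck (0.969 and 0.784) and the chemokine receptor gene Cxcr3 (0.969 and 0.804). Slamf6 was most like Traf3ip3 (0.992 and 0.783), the B cell transcription factor gene Bcl11a (0.982 and 0.635) and the B cell antigen processing gene H2-Ob (0.980 and 0.538). Ly9 was most like Cd2 (0.983 and 0.885), its neighbour Cd48 (0.979 and 0.870) and Cnp (0.979 and 0.913). Sh2d1a was most like S1pr4 (0.955 and 0.843), Cytip (0.950 and 0.775) and Zfp709 (0.950 and 0.796).

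Among the shared members, Cd48 was most like Ly9, Cd53 (0.966 and 0.818) and Eif2d (0.964 and 0.776), and Cd84 was most like Themis (0.967 and 0.887), Slfn2 (0.945 and 0.815) and Tmem71 (0.938 and 0.742). Slamf7 was most like Il7r (0.958 and 0.897), Dsc2 (0.953 and 0.874) and Ifi206 (0.946 and 0.862). For the myeloid members, Slamf8 was most like Glrx (0.881 and 0.811), the itaconate synthase gene Acod1 (0.869 and 0.899) and Havcr2 (0.862 and 0.798), and Slamf9 was most like Sh2d1b1 (0.938 and 0.797), Fbxl15 (0.802 and 0.597) and Cd81 (0.795 and 0.413). Between Slamf8 and Slamf9 themselves r was -0.151 over 16 tumors and 0.587 over the 14 that are no responders.

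Genes of the pathway that are no members were tested over all genes. The lists of pathway, partner and phagosome genes were also chosen with earlier results of these data known. Their counts are therefore a description, and nothing is read from them. In a list of 12 SAP family adaptors and signaling genes downstream of the receptors, 3 were called higher in responders than in non-responders and 0 lower, that is 3 of 12 against 13.2% of all genes tested. Prkcq, which encodes the T cell kinase PKC-theta, was at 21.4 and 20.8 CPM in responder replicates 15 and 16 and at 0.542 to 1.62 CPM in non-responders, a log2 fold change of 4.14 (SE 0.50, adjusted p = 1.5e-05). The phosphatase gene Ptpn6 rose by 1.38 on the log2 scale (SE 0.18, adjusted p = 2.6e-05), from 51.8 to 134 CPM on average. The exchange factor gene Vav1 rose by 1.14 (SE 0.18, adjusted p = 0.00024), from 26.8 to 59.1 CPM. Both were higher in replicate 15, and without it neither was called, at 0.77 for Ptpn6 and 0.72 for Vav1.

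The most abundant genes of that list that were not called are the phosphatase gene Ptpn11, with a log2 fold change of 0.05 (SE 0.24, adjusted p = 0.923), Nfkb1, with 0.25 (SE 0.12, adjusted p = 0.175), and Csk, with 0.47 (SE 0.22, adjusted p = 0.145). The median of the 12 genes was 0.57, against 0.02 over all genes tested. The same 3 genes were called against IgG controls, where 14.3% of all genes were called higher.

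The genes of the other adaptor, EAT-2, had smaller log2 fold changes than Sh2d1a. Sh2d1b1, the EAT-2 gene that was most like Slamf9, was at 5.71 and 2.73 CPM in responder replicates 15 and 16, at 5.93 to 8.81 CPM in non-responders and at 5.05 to 8.57 CPM in IgG controls. As with Slamf9, replicate 16 was the lowest of all tumors and replicate 15 lay within the IgG range. Against non-responders it had a log2 fold change of -0.78 (SE 0.26, adjusted p = 0.0437), below the fold threshold for a call. The adjusted p was above 0.05 in 7 of 14 alternative settings, among them 0.383 without responder replicate 16, while without responder replicate 15 the gene was called at -1.48. Against IgG controls the value was -0.69 (SE 0.25, adjusted p = 0.059). The second EAT-2 gene, Sh2d1b2, named after its values were seen, had 0.77 (SE 0.79, adjusted p = 0.574) against non-responders. This too is an average of opposite values, from 0.414 and 2.22 CPM in responder replicates 15 and 16. It was 1.45 without replicate 15 and -0.95 without replicate 16.

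Of 7 partner genes outside the list, 1 was called in responders against non-responders, next to 13.2% of all genes, and the same gene against IgG controls. Cd2, a T and NK cell adhesion receptor that binds Cd48, was at 41.7 and 29.5 CPM in responder replicates 15 and 16, at 1.43 to 4.72 CPM in non-responders and at 0.869 to 2.80 CPM in IgG controls. Its log2 fold change was 3.77 (SE 0.38, adjusted p = 2.5e-06) against non-responders and 4.37 (SE 0.35, adjusted p = 1.2e-07) against IgG controls. The integrin genes Itgam and Itgb2, whose product is an interaction partner of Slamf7 in phagocytosis, had 0.06 (SE 0.24, adjusted p = 0.905) and 0.53 (SE 0.22, adjusted p = 0.103) against non-responders. Hmgb1 had -0.29 (SE 0.13, adjusted p = 0.121). The median of the 7 genes was -0.02. The 2 binding partners of Cd48 therefore had different values, 3.77 for Cd2 and -0.02 for Cd244a, with the reservation on strand given for the latter.

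Slamf1 takes part in the maturation of phagosomes with a lipid kinase complex that holds beclin 1, and Slamf8 acts on the NADPH oxidase. Among 9 such genes, 1 was called in responders against non-responders and 6 passed the adjusted p of 0.05, all higher, where 19.7% of all genes passed it in either direction. Rac2, the small GTPase of the oxidase in blood cells, rose by 2.10 on the log2 scale (SE 0.16, adjusted p = 1.3e-07), with 168 and 101 CPM in responder replicates 15 and 16 against 25.9 to 34.9 CPM in non-responders. Cyba, a membrane subunit of the oxidase, had 0.67 (SE 0.18, adjusted p = 0.0124) and was called only against IgG controls, at 1.05 (SE 0.17, adjusted p = 0.00016). There it fell just under the fold threshold without responder replicate 15, at 0.96, and with no filter on low counts, at 0.98.

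The other membrane subunit gene Cybb had 0.84 (SE 0.24, adjusted p = 0.0181) and the cytosolic subunit gene Ncf1 0.74 (SE 0.20, adjusted p = 0.0155) against non-responders, both short of a call. Without responder replicate 15 the adjusted p was 0.165 for Cybb and 0.498 for Ncf1, and for Cybb it was 0.128 without replicate 16. Becn1, which encodes beclin 1, had -0.07 (SE 0.10, adjusted p = 0.697). The median of the 9 genes was 0.59.

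Markers of other cells moved with the lymphocyte members. The marker lists too were chosen with earlier results of these data known, so their counts are a description. In responders against non-responders, 8 of 8 T cell, 8 of 8 B cell, 4 of 5 plasma cell, 3 of 5 NK cell, 6 of 7 dendritic cell, 2 of 5 neutrophil and 6 of 6 lymph node stroma and high endothelial venule markers were called, all higher, next to 12.5% of all genes called higher, while 0 of 10 macrophage and monocyte markers were called (edgeR; 3 at an unadjusted p below 0.05, 0 by DESeq2). Without responder replicate 15, 1 NK cell and 1 neutrophil marker were called, and without replicate 16 there were 0 and 1. Against IgG controls 5 of 5 NK cell, 4 of 5 neutrophil and 1 of 10 macrophage and monocyte markers, Lyz2 at 1.06 (SE 0.33, adjusted p = 0.0284), were called higher, next to 14.3% of all genes, and the counts of the other lists were the same. Lyz2 was not called without IgG control replicate 1, responder replicate 15 or responder replicate 16. No marker was at 0 in every tumor of a group. Summed over its list, the T cell level was 300.2 and 247 CPM in responder replicates 15 and 16 and 19.1 to 66.1 CPM in non-responders, led by Thy1 and Lck. Thy1 weighs most in this sum, with a mean of 30.7 CPM over all tumors against 9.59 CPM for Lck. It had the smallest log2 fold change of the 8 genes, 2.11 against a median of 3.57, and 1.71 without responder replicate 15. The B cell level, with Cd79a among its leading genes, was 1245 and 310.4 CPM against 1.70 to 6.71 CPM. Lymph node stroma genes, led by Ccl21a and Glycam1, summed to 423 and 130.5 CPM against 0.922 to 4.58 CPM. Plasma cell genes, led by Sdc1 and Jchain, summed to 509 and 399.6 CPM against 49.4 to 87.9 CPM, and Sdc1 itself had a log2 fold change of -0.17 (SE 0.24, adjusted p = 0.703). Dendritic cell genes, led by Zbtb46 and Ccr7, summed to 98.9 and 82.1 CPM against 14.3 to 20.6 CPM.

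The B cell, stroma, T cell, plasma cell and dendritic cell levels were higher in replicate 15, as were Slamf1, Slamf6, Ly9, Sh2d1a, Cd48 and Slamf9. Neutrophil genes, led by Csf3r and S100a9, summed to 14.9 and 30.7 CPM in responder replicates 15 and 16 against 7.74 to 11.8 CPM in non-responders, and NK cell genes, led by Eomes and Klrb1c, to 12.8 and 22.1 CPM against 4.95 to 9.53 CPM. Both were higher in replicate 16, as were Slamf8, Slamf7 and Cd84. Macrophage and monocyte genes, led by Lyz2 and C1qb, summed to 2538 and 2848 CPM in the responders, 1426 to 2694 CPM in non-responders and 1344 to 2141 CPM in IgG controls. The part of these cells in the members' differences was not tested.

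Since the rule did not use position, the neighbours of the receptor genes on chromosome 1 were tested. The interval from Ly9 to Slamf8 spans 1001.944 kb and lists 41 genes that are no members, of which 19 were tested. Of these, 3 were called in responders against non-responders and the same number against IgG controls, all higher, next to 12.5% and 14.3% of all genes. The median log2 fold change of the 19 neighbours was 0.09 against non-responders. Among those called, and named after their values were seen, were Gm10521, between Cd84 and Slamf6, with 1.92 (SE 0.41, adjusted p = 0.00305), and 4933439K11Rik, between Slamf9 and Slamf8, with 1.33 (SE 0.42, adjusted p = 0.0342). Without responder replicate 15 only 1 neighbour was called and without responder replicate 16 there were 5. Within the same interval the lymphocyte and shared receptors begin 0 to 328.891 kb from the lower end of Ly9, while Slamf9 and Slamf8 begin 886.734 and 993.134 kb from it.

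**Figure D4:**
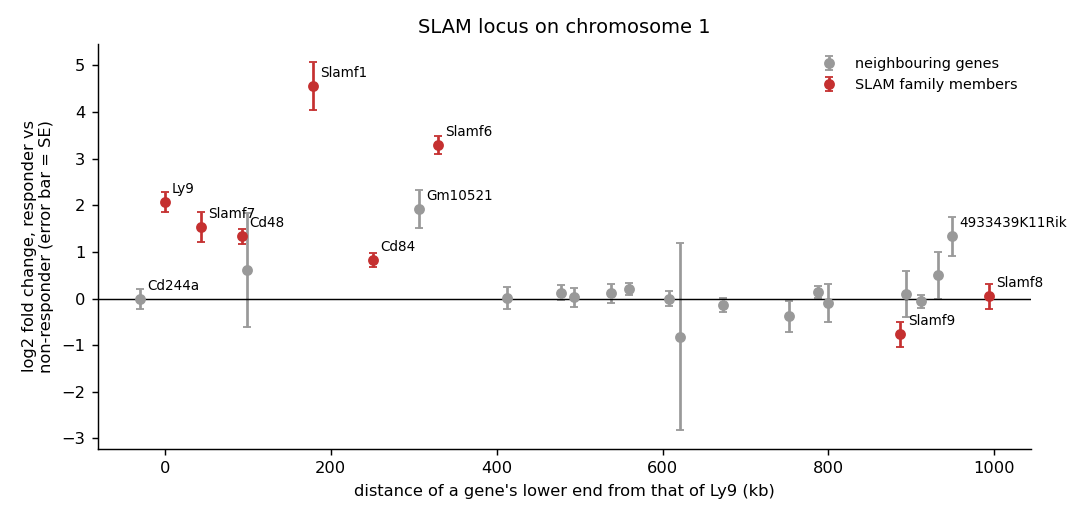
Log2 fold change of responders against non-responders (vertical axis, error bar SE) for the members on chromosome 1 and the tested genes among them, by distance in kb of the lower end of the gene from that of Ly9. The 6 members with a positive change of 0.82 or more lie at the left, Slamf9 and Slamf8 at the right, and most neighbours lie near 0, with 1 tested neighbour not shown. Cd244a, a receptor of the family outside the list, is drawn among the neighbours.

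Inside the IgG control and the non-responder group, variation was not used to choose the members, and each member was correlated with the mean log2 CPM of the T cell and of the macrophage and monocyte markers. Of 36 relations, 0 passed an adjusted p of 0.05, 4 had an unadjusted p below 0.05, and the smallest adjusted p was 0.258 (exact permutation tests, two-sided). The adjusted p of each r with a p given here is 0.258. Leaving out 2 tumors leaves few points, above all in the 6 non-responders, so those values of r are rough. Slamf1 and the T cell level in the 8 IgG controls gave r = 0.823 (exact permutation p = 0.0199) and rho = 0.714 (p = 0.0576, exact), and r = 0.593 without the 2 tumors farthest from the median T cell level. In the 6 non-responders Sh2d1a and the T cell level gave r = 0.837 (exact permutation p = 0.0319) and rho = 0.829 (p = 0.0583, exact), and r = 0.986 without the 2 farthest tumors.

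Relations with the macrophage level had the highest r for Cd84 and Ly9. In non-responders these 2 genes also gave r of 0.823 and 0.811 with the T cell level, and Sh2d1a gave 0.754 with the macrophage level. These relations therefore do not separate the 2 cell types. In the same group Slamf6 gave -0.18 with the T cell level and Slamf9 gave 0.10 with the macrophage level. In the 6 non-responders Cd84 gave r = 0.952 (exact permutation p = 0.0222), rho = 0.829 (p = 0.0583, exact) and r = 0.985 without the 2 farthest tumors, while Ly9 gave r = 0.900 (exact permutation p = 0.0306), rho = 0.886 (p = 0.0333, exact) and r = 0.770. Non-responder replicates 9 and 14, of high mitochondrial share (6.00% and 5.73%), had the lowest macrophage levels, with means of 6.35 and 6.44 log2 CPM, and the lowest Cd84, at 35.1 and 35.8 CPM. The part of that share in these relations was not tested. In the 8 IgG controls Cd48 and Ly9 gave r of 0.737 and 0.675 with that level (exact permutation p = 0.0627 and 0.0718), which became -0.283 and -0.055 without the 2 farthest tumors, IgG control replicates 1 and 2. These 2 relations rest on those tumors. The median r was 0.081 with the T cell level and 0.435 with the macrophage level in IgG controls, and 0.570 and 0.592 in non-responders.

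**Figure D5:**
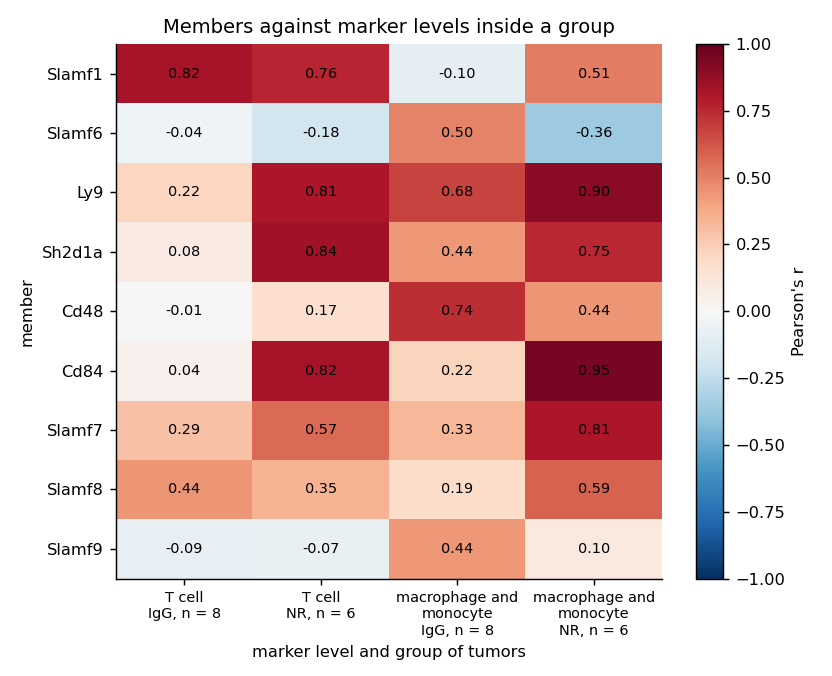
Pearson's r, as color and number, of each member (rows) with the T cell and the macrophage and monocyte marker level (columns) among the 8 IgG control tumors and among the 6 non-responder (NR) tumors. Values are mostly positive, from -0.36 to 0.95, and none passed the adjusted threshold.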

How the data were processed

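Bulk RNA-seq of 16 MC38 tumors was analysed in the groups given by the sample labels. Alignment by the authors used STAR 2.6 on GRCm38 and the Ensembl 91 annotation, and RSEM 1.3.0 then gave the estimates. The deposited values are expected counts of each gene without normalization, of which 7.84% were not whole, and they were rounded here. A set of 92 entries that name no gene, with at most 185 counts or 0.000549% of counts in a tumor, was left out.

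Tests were made in R 4.3.3 with edgeR 4.0.16 (TMM, edgeR's filter on low counts, robust quasi-likelihood fit of 3 groups, Benjamini-Hochberg adjustment over 18251 genes), after a check on simulated counts. Log2 CPM used a prior count of 2. Exon length, positions and symbols came from GENCODE and promoters from RefSeq. Python 3.11.15, pandas 2.3.3, scipy 1.17.1 and matplotlib 3.10.9 were used for the rest. Each tumor came from another mouse. The p-values against responders rest on 2 responders.

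Members and lists were chosen with earlier results of these data known. Named were all members, in each pathway list every called gene and up to 3 others by mean CPM, in each marker list the 2 genes of highest mean CPM, and for each member the 3 genes of highest r, without predicted genes and receptor segments. Alternatives were DESeq2 1.42.0, median-of-ratios size factors, no filter, at least 10 counts in at least 8 tumors, only the 2 groups compared and each tumor left out, with the correlations repeated at a prior count of 0.5 and with z scores. A fit without the 3 tumors of highest mitochondrial share was added after seeing the data. Proteins were not analysed here, and single values of some list genes and neighbours are not reported here. Of the markers, Fdcsp was not analysed here.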

Additional observations from a re-analysis of the deposited data

Results flagged for a closer look

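Among 37 member and pathway genes in the IgG control and the non-responder group, 74 groups in all, a tumor stood apart from the others of its group 8 times, and chance gives about 1 in 20 groups. No member was among them. In IgG control replicate 1, the tumor of highest mitochondrial share, this held for 6 genes, with 96.9 CPM for Csk, 99.9 CPM for Fcer1g, 171 CPM for Becn1, 17.0 CPM for Pik3c3, 41.5 CPM for Ncf1 and 28.6 CPM for Ncf4. In IgG control replicate 4 it held for Sh2d1b2 with 2.28 CPM, and in IgG control replicate 6 for Prkcq with 3.01 CPM.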

How the results depend on the processing

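No paired analysis was possible because the groups share no replicate numbers. Over the alternatives, 5 to 7 of 9 members were called against non-responders and 6 to 7 against IgG controls, and 0 in non-responders against IgG controls. Sh2d1a was not tested where at least 10 counts in at least 8 tumors were asked for. In that setting 2 lymph node stroma, 0 neutrophil and 2 plasma cell markers were called against non-responders, and 2 of each against IgG controls. DESeq2 called 1 neutrophil marker against non-responders and 4 genes in all between non-responders and IgG controls, where the fit without the 3 tumors of highest mitochondrial share called 1. Against IgG controls that fit called 0 macrophage markers, and with no filter there were 0 macrophage markers, 1 phagosome gene and 5 neighbours. With tumors left out in turn, the calls over all genes ranged from 932 to 2594 against non-responders, from 1240 to 2947 against IgG controls, both lowest without responder replicate 15, and from 0 to 2 between non-responders and IgG controls. Against non-responders the NK cell calls ranged from 0 to 3, neutrophil from 1 to 2 and neighbours from 1 to 5. Against IgG controls NK cell calls ranged from 0 to 5, neutrophil from 1 to 5, macrophage from 0 to 1, phagosome from 1 to 2 and neighbours from 1 to 5. The calls that shifted by more than 1.5 times did so without responder replicate 15 or 16, except the macrophage call and the 2 genes between non-responders and IgG controls, which also or only shifted without IgG control replicate 1. The cause of these shifts was not tested. Of 446 values for single members, 439 moved by less than the spread between tumors or stayed on their side of the call. The correlations without each tumor in turn were run in IgG controls only, and no setting gave a relation past an adjusted p of 0.05. With 2 responders, each called difference rests on a spread estimated mostly from the other tumors.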
